A study of Homo sapiens with 9 samples.

Results

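The 10 genes described here, ACTA2, TAGLN, CNN1, MYL9, MYLK, TPM1, TPM2, ACTG2, CALD1 and OXTR, encode parts of the contractile apparatus of myoepithelial cells and the receptor through which oxytocin makes them contract. They were chosen by gene name from the 62666 genes of the deposited tables, all 10 were found, and 9 of them passed the filter on low counts. For TPM1 the 39 listed transcripts were examined as well. The study measured polyA RNA in 3 human mammary epithelial lines of the MCF10 series, 3 libraries per line, to follow gene expression along a model of breast cancer progression.

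MCF10A is an immortalized breast epithelial line that does not form tumours. Introducing an activated HRAS gene into it gave MCF10AT1, and the malignant line MCF10Ca1a descends from those cells. All 3 lines share the MCF10A origin and a DMEM/F12 medium with horse serum, bicarbonate, insulin, glutamine, EGF, hydrocortisone and cholera toxin. Horse serum was 5% for MCF10A and MCF10Ca1a and 2.5% for MCF10AT1, so the effect of serum cannot be told apart from that of the line in comparisons with MCF10AT1. Each stage is represented by 1 line, and the labels do not say whether the 3 libraries of a line came from separate cultures. The p-values therefore measure the spread between libraries, which may be technical.

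Myoepithelial cells lie between the luminal cells and the basement membrane of the mammary duct and squeeze milk from the alveoli. Like smooth muscle, they pull with actin filaments and non-sarcomeric myosin: myosin light chain kinase (MYLK) phosphorylates the regulatory light chain (MYL9 in this group of genes), while tropomyosins, caldesmon, calponin and transgelin bind the filaments and modulate their use. Many of these genes carry promoter elements for serum response factor (SRF), which works with actin-regulated cofactors of the MRTF family and, in muscle, with myocardin. Oxytocin acts on its receptor OXTR, a G-protein-coupled receptor that raises intracellular calcium through phospholipase C.

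Depth was 62.9 to 69.5 M estimated counts per library for the MCF10A and MCF10AT1 lines, against 32.9 to 35.2 M for MCF10Ca1a, so low genes were measured less precisely in the tumour-forming line. A floor of 3 counts per library was used for genes at or near 0, and folds against that floor are lower bounds that cover counting error only. Gene values are CPM (counts scaled to the size of the library) for comparisons of 1 gene between lines and TPM (scaled also to transcript length) for comparisons between genes. Errors of levels are SDs over 3 libraries. Changes were tested with edgeR's quasi-likelihood test in 1 fit of all 17910 genes tested, and a gene was called at a Benjamini-Hochberg adjusted p under 0.05. The lines differ in most genes: 61.6% of all genes tested were called between MCF10AT1 and MCF10A, 80.9% between MCF10Ca1a and MCF10A, and 78.4% between MCF10Ca1a and MCF10AT1.

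In the comparison of MCF10AT1 with MCF10A, 6 of the 9 tested contractile genes were lower (ACTA2, TAGLN, MYL9, TPM1, ACTG2, CALD1) and 3 were higher (MYLK, TPM2, OXTR), against a background of 31.8% lower and 29.8% higher among all genes tested. Between MCF10Ca1a and MCF10A, 8 of 9 were lower, none was higher, and OXTR was not called, against a background of 41.9% lower and 39% higher. Between MCF10Ca1a and MCF10AT1, 6 were lower, TPM1 alone was higher, and TAGLN and ACTG2 were not called, against a background of 40.3% lower and 38% higher. The median log2 fold change of the tested contractile genes, with genes at the floor set to their bound, was -0.57, -1.51 and -0.93 in those 3 comparisons (the last over 8 genes, without ACTG2, which was at the floor in both lines), while that of all genes was 0.00, -0.05 and -0.04. ACTG2 passed the filter only through its counts in MCF10A, so its inclusion favours a fall from that line. The comparisons share libraries: the first and second use the same MCF10A libraries, and the last uses those of both derived lines.

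**Figure D1:**
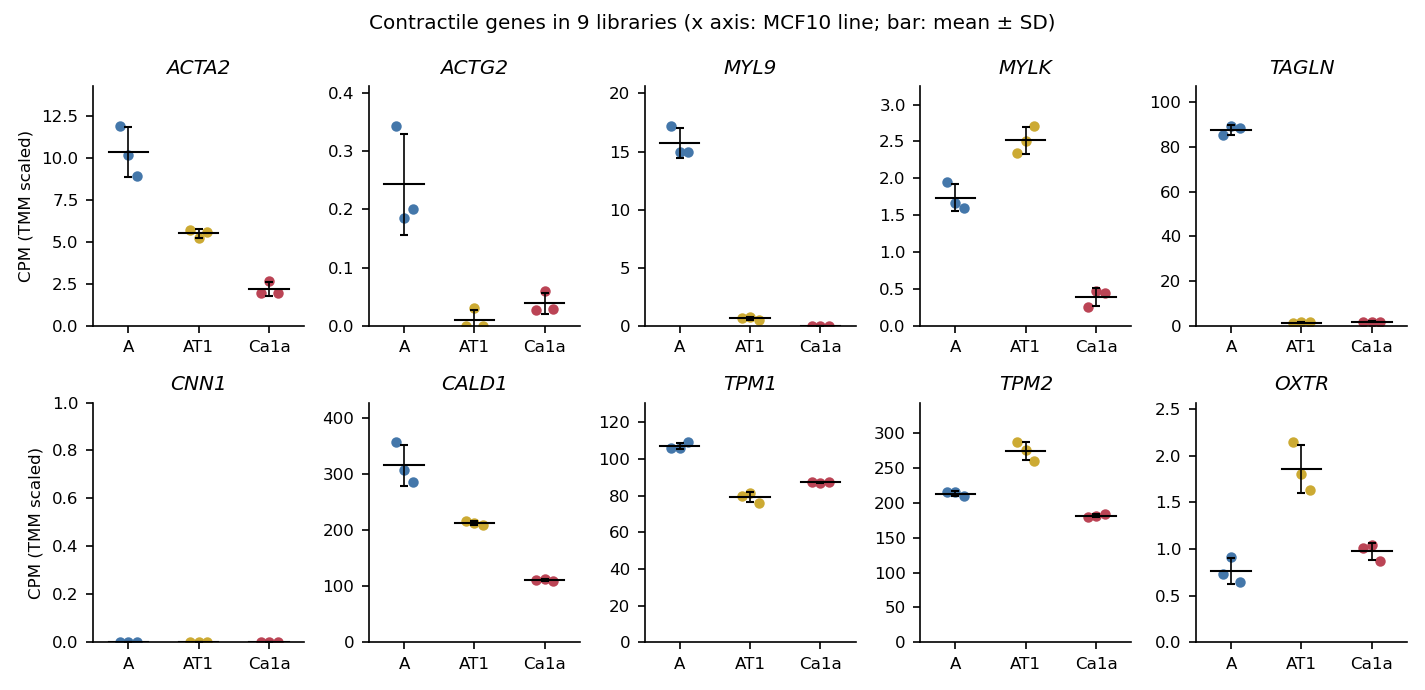
CPM in each of the 9 libraries for the 10 contractile genes, one panel per gene with its own linear axis from 0; points are libraries, and horizontal bars with error bars are the mean and SD over 3 libraries of a line. TAGLN and MYL9 are near 0 in both derived lines, CNN1 is at 0 in all libraries, and MYLK, TPM2 and OXTR are highest in MCF10AT1.

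TAGLN (transgelin, an actin-bundling protein of smooth muscle) had the largest fall from MCF10A to MCF10AT1 among the contractile genes above the floor in both lines. The gene ENSG00000149591.17 lies on the plus strand of chr11:117199321-117204782 (GRCh38). Its level was 85.2, 89.3 and 88.4 CPM in the 3 MCF10A libraries. In MCF10AT1 it was 1.47, 1.54 and 1.53 CPM. In MCF10Ca1a it was 1.90, 1.55 and 1.95 CPM. Every MCF10A library therefore lay far above all 6 libraries of the derived lines, and those of the derived lines lay close together.

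From 87.6 ± 2.16 CPM in MCF10A, TAGLN was 57.8-fold lower in MCF10AT1 (log2 fold change -5.85, SE 0.07, adjusted p = 1.45e-15). It was 48.6-fold lower in MCF10Ca1a (log2 fold change -5.60, SE 0.07, adjusted p = 1.17e-15). The difference between the derived lines, a log2 fold change of 0.25 (SE 0.11), did not pass the test (adjusted p = 0.077). That last difference depended on the processing: it passed with DESeq2's size factors (0.30, adjusted p = 0.0353) and without the second MCF10Ca1a library (0.34, adjusted p = 0.0324), and its sign was negative on length-scaled and scaled counts. The opposite-strand neighbour PCSK7 overlaps TAGLN and was at 52.1 to 59.9 CPM in MCF10A, 42.4 to 46.3 in MCF10AT1 and 26.0 to 29.5 in MCF10Ca1a.

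CNN1 (basic calponin, a filament-binding protein used as a marker of smooth muscle and myoepithelium, ENSG00000130176.8, chr19:11538717-11550323, plus strand) had 0 counts in all 9 libraries. No fold can be given for it. Its relative CNN3 (the acidic calponin of non-muscle cells) was well detected, at 88.5 CPM in MCF10A, 251 in MCF10AT1 and 135 in MCF10Ca1a.

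CALD1 (caldesmon, which binds actin and restrains myosin, ENSG00000122786.20, chr7:134744252-134970728, plus strand) fell at each step. Its level was 357, 307 and 286 CPM in the MCF10A libraries. It was 216, 214 and 210 CPM in MCF10AT1. It was 111, 114 and 109 CPM in MCF10Ca1a. The 3 lines did not overlap, and the widest spread was in MCF10A, at 317 ± 36.2 CPM.

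CALD1 was 1.49-fold lower in MCF10AT1 than in MCF10A (log2 fold change -0.57, SE 0.07, adjusted p = 8.95e-06). It was 2.84-fold lower in MCF10Ca1a than in MCF10A (-1.51, SE 0.07, adjusted p = 1.54e-10). Between the derived lines it was 1.91-fold lower in MCF10Ca1a (-0.93, SE 0.07, adjusted p = 2.9e-08). Among the contractile genes, CALD1 and ACTA2 were the ones expressed above the floor in all 9 libraries that fell at both steps.

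ACTA2 (smooth muscle alpha-actin, the actin isoform that marks myoepithelial cells and myofibroblasts, ENSG00000107796.13, chr10:88935074-88991339, minus strand) was low in all 3 lines and fell at each step. Its level was 11.9, 10.2 and 8.93 CPM in MCF10A. It was 5.71, 5.21 and 5.61 CPM in MCF10AT1. It was 1.96, 2.65 and 1.95 CPM in MCF10Ca1a, which rests on 69 to 89 counts per library. The lowest library of each line lay above the highest of the next.

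The fall of ACTA2 was 1.88-fold from MCF10A to MCF10AT1 (log2 fold change -0.91, SE 0.12, adjusted p = 1.29e-05). From MCF10A to MCF10Ca1a it was 4.74-fold (-2.25, SE 0.14, adjusted p = 2.17e-09). From MCF10AT1 to MCF10Ca1a it was 2.53-fold (-1.34, SE 0.14, adjusted p = 9.36e-07). ACTA2 overlaps FAS and STAMBPL1 on the opposite strand, which were lowest in MCF10Ca1a too: STAMBPL1 was at 34.1 to 37.1 CPM in MCF10A, 26.3 to 28.3 in MCF10AT1 and 7.15 to 7.42 in MCF10Ca1a. The kit marks strand, but the strand setting of the counting is not given in the sources used here, and whether reads of these neighbours entered the counts of ACTA2 was not tested.

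ACTG2 (smooth muscle gamma-actin, ENSG00000163017.14, chr2:73892314-73919865, plus strand) was detected above the floor in MCF10A alone. It had 22, 12 and 14 counts in the MCF10A libraries, 0, 2 and 0 in MCF10AT1 and 1, 2 and 1 in MCF10Ca1a. From 0.243 ± 0.087 CPM in MCF10A it was at least 5.26-fold lower in MCF10AT1 (adjusted p = 0.000112). It was at least 2.83-fold lower in MCF10Ca1a, where the lower depth sets a higher floor (adjusted p = 0.00231). Both derived lines were at the floor, so no fold between them is given. ACTG2 did not pass the filter, and so had no call, on length-scaled, scaled or thinned counts, nor for MCF10Ca1a in a fit of the 2 lines compared. The non-muscle actins were the bulk of actin RNA: ACTB stood at 5135, 4633 and 4393 TPM and ACTG1 at 1909, 1929 and 3062 TPM in MCF10A, MCF10AT1 and MCF10Ca1a, whereas ACTA2 stood at 11.3, 5.57 and 2.60 TPM.

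MYL9 (the smooth muscle regulatory myosin light chain, ENSG00000101335.10, chr20:36541484-36551447, plus strand) fell with TAGLN in MCF10AT1 and was lower still in MCF10Ca1a. It had 1100, 968 and 1044 counts in MCF10A, which is 17.2, 15 and 15 CPM. In MCF10AT1 it had 44, 50 and 33 counts, which is 0.660, 0.755 and 0.532 CPM. In MCF10Ca1a it had 0, 0 and 1 counts. The 3 lines did not overlap, and MCF10Ca1a was at the floor.

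MYL9 was 24.0-fold lower in MCF10AT1 than in MCF10A (log2 fold change -4.59, SE 0.14, adjusted p = 4.95e-12). It was at least 183-fold lower in MCF10Ca1a than in MCF10A (adjusted p = 5.1e-13). It was at least 7.55-fold lower in MCF10Ca1a than in MCF10AT1 (adjusted p = 1.95e-07). The regulatory light chains that non-muscle cells use were abundant throughout: MYL12A stood at 817, 798 and 648 TPM and MYL12B at 846, 948 and 603 TPM, against 11.3, 0.462 and 0.00961 TPM for MYL9.

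MYLK (myosin light chain kinase, ENSG00000065534.20, chr3:123610049-123884331, minus strand) was low in all libraries and highest in MCF10AT1. It had 125, 108 and 112 counts in MCF10A, which is 1.95, 1.67 and 1.60 CPM. In MCF10AT1 it had 156, 166 and 168 counts, which is 2.34, 2.50 and 2.71 CPM. In MCF10Ca1a it had 9, 16 and 16 counts, which is 0.252, 0.476 and 0.451 CPM. On this scale the 3 lines did not overlap, with MCF10AT1 highest and MCF10Ca1a lowest.

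By the edgeR test MYLK was higher in MCF10AT1 than in MCF10A by a log2 fold change of 0.53 (SE 0.15, adjusted p = 0.00837). It was 4.43-fold lower in MCF10Ca1a than in MCF10A (-2.15, SE 0.21, adjusted p = 4.1e-07) and 6.40-fold lower than in MCF10AT1 (-2.68, SE 0.21, adjusted p = 3.17e-08). The calls against MCF10A depend on the length correction, and so does the size of the difference between the derived lines. On the deposited TPM scale the lines overlapped, at 0.302, 0.252 and 0.388 in the MCF10A libraries. The MCF10AT1 libraries had 0.332, 0.432 and 0.550 TPM, and those of MCF10Ca1a 0.213, 0.186 and 0.407 TPM. On length-scaled counts the rise to MCF10AT1 was 0.60 (adjusted p = 0.103) and the difference of MCF10Ca1a from MCF10A was -0.40 (adjusted p = 0.273). Between the derived lines the call held there, at -0.995 (adjusted p = 0.0127), and on scaled counts, at -1.03 (adjusted p = 0.0484). On the log2(TPM + 1) scale none of the 3 differences passed, with adjusted p of 0.202, 0.556 and 0.0604. The opposite-strand gene MYLK-AS1, which overlaps MYLK, was at 0.936 to 1.59 CPM in MCF10A, 2.19 to 2.42 in MCF10AT1 and 1.51 to 1.90 in MCF10Ca1a.

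MYLK and ACTG2 are shown with promoter sequence because they were the contractile genes with a CArG box, the element bound by SRF, in the RefSeq promoter table (GRCh38.p14, from 250 bases before to 50 after each start site). Of the 10 genes, 8 had entries, with 15 promoters in all, and TAGLN and MYL9 had none and were not searched. In the table as a whole 454 of 35116 promoters (1.29%) held a box. The MYLK match lies 94 bases before a start site that is 10.5 kb from the 3′ end of a gene of 274 kb. The gene is known to carry there an internal promoter for telokin, a short protein of smooth muscle without kinase activity. ACTG2 has a pair of boxes 110 and 73 bases before its start site. Capitals mark the boxes, and each sequence reads 5′ to 3′ on the strand of its gene (MYLK chr3:123620608-123620667, minus strand; ACTG2 chr2:73892873-73892969, plus strand).
MYLK internal promoter: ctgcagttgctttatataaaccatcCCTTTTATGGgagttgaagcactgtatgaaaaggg
ACTG2 promoter: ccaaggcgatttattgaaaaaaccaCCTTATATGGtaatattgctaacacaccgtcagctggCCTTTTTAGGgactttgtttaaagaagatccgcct
The search used 1 motif by its exact form on both strands, and a match is a description of letters in the window. Both genes with a match were among the lowest of the contractile genes in all 3 lines, ACTG2 at 0.201 TPM and MYLK at 0.314 TPM in MCF10A. CNN1 and OXTR, which had entries but no match, were at 0 and 0.278 TPM in MCF10A.

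TPM2 (beta-tropomyosin, one of the coiled-coil proteins that lie along the actin filament, ENSG00000198467.16, chr9:35681992-35690121, minus strand) was the most abundant of the 10 genes by TPM in every line. Its level was 215, 215 and 209 CPM in MCF10A. It was 286, 275 and 260 CPM in MCF10AT1. It was 179, 181 and 184 CPM in MCF10Ca1a. The lines did not overlap, with MCF10AT1 highest.

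TPM2 was 1.29-fold higher in MCF10AT1 than in MCF10A (log2 fold change 0.36, SE 0.05, adjusted p = 3.34e-05). It was 1.17-fold lower in MCF10Ca1a than in MCF10A (-0.23, SE 0.05, adjusted p = 0.000958), a call lost on the log2(TPM + 1) scale (-0.08, adjusted p = 0.28). It was 1.51-fold lower in MCF10Ca1a than in MCF10AT1 (-0.59, SE 0.05, adjusted p = 1.16e-07).

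TPM1 (alpha-tropomyosin, ENSG00000140416.24, chr15:63042632-63071915, plus strand) changed little as a gene. Its level was 106, 106 and 109 CPM in MCF10A. It was 80.0, 81.7 and 76.2 CPM in MCF10AT1. It was 87.7, 86.7 and 87.2 CPM in MCF10Ca1a. The lines did not overlap, and their ranges were close.

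TPM1 was 1.35-fold lower in MCF10AT1 than in MCF10A (log2 fold change -0.43, SE 0.05, adjusted p = 2.61e-06) and 1.22-fold lower in MCF10Ca1a than in MCF10A (-0.29, SE 0.05, adjusted p = 5.38e-05). Between the derived lines it was 1.10-fold higher in MCF10Ca1a (0.14, SE 0.05, adjusted p = 0.0165). The sign of that last difference turned on length-scaled counts (-0.16, adjusted p = 0.0115) and on scaled counts (-0.15, adjusted p = 0.0107). The call was also lost without the first MCF10AT1 library (adjusted p = 0.0642), without the third (0.0846) and without the first MCF10Ca1a library (0.0585). Without a filter on low counts it was lost too, in edgeR (0.05, adjusted p = 0.569) and with limma on log2(TPM + 1) (0.13, adjusted p = 0.0588).

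**Figure D2:**
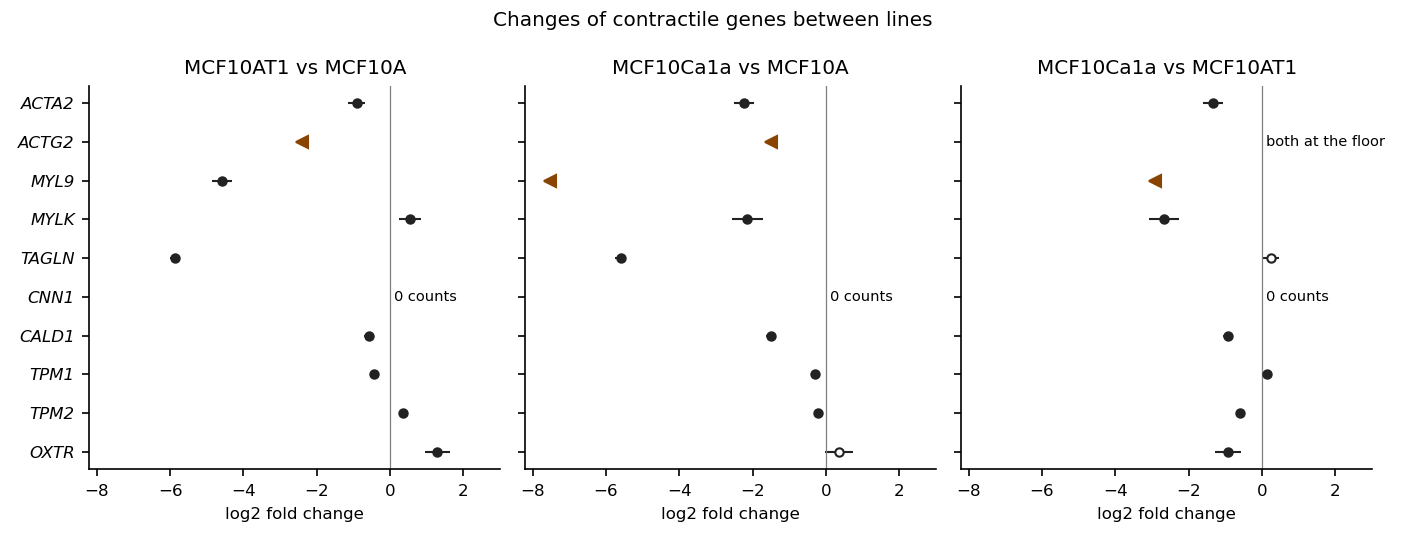
Log2 fold changes of the contractile genes in the 3 comparisons, one panel each; points are edgeR estimates with bars of 1.96 SE, filled where the adjusted p is under 0.05, and triangles are lower bounds for genes at the floor of 3 counts per library. TAGLN and MYL9 lie far below 0 in MCF10AT1, and most points lie left of 0 in both comparisons with MCF10Ca1a.

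The largest changes of TPM1 were in single transcripts. TPM1 uses alternative start sites, internal exons and last exons: transcripts from the distal (upstream) start encode the longer tropomyosins found in stress fibres and muscle, and those from the internal start encode shorter forms. Alternative exons are shown here because they tell apart most of the transcripts whose levels differ between the lines. They do not tell TPM1-208 from TPM1-214. TPM1-214 lacks an exon that TPM1-208 has, at 14.3 to 14.434 kb from the start of TPM1-206, which is not shown. The exons are given in GRCh38 with the transcript names of GENCODE 29, all on the plus strand. The first pair holds the start codons, in capitals: the distal first coding exon (chr15:63042830-63042943, used by TPM1-206 and TPM1-201) and the internal one (chr15:63048576-63048707, used by TPM1-208, TPM1-214 and TPM1-216).
Distal first coding exon: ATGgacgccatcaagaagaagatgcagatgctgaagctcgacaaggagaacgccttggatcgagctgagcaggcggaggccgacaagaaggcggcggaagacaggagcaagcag
Internal first coding exon: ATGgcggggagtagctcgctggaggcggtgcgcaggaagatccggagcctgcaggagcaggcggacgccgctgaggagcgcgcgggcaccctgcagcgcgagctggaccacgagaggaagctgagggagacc

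A pair of alternative second coding exons sets TPM1-201 apart from TPM1-206. TPM1-201 has the upstream one (chr15:63043706-63043831) and TPM1-206 the downstream one (chr15:63044027-63044152). Both are 126 bases long and differ at 64 bases (49.2% identical), marked by capitals. Smooth muscle is known to use the upstream exon and most other cells the downstream one.
Upstream second coding exon: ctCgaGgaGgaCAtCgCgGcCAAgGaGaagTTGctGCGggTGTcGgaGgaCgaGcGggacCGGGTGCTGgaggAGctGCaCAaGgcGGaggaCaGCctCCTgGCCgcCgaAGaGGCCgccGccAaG
Downstream second coding exon: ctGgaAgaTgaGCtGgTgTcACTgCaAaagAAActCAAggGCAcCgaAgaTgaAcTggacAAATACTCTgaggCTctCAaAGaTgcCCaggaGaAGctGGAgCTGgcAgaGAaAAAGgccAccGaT

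The next pair is 2 alternative exons further into the gene, of which each transcript described has 1. The upstream one (chr15:63061198-63061273) is in TPM1-206, TPM1-208 and TPM1-214, and the downstream one (chr15:63061713-63061788) is in TPM1-201 and TPM1-216. Both are 76 bases long, and they differ at 33 bases (56.6% identical), marked by capitals.
Upstream internal exon: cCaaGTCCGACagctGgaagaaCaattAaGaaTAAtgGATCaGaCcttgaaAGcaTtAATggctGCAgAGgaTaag
Downstream internal exon: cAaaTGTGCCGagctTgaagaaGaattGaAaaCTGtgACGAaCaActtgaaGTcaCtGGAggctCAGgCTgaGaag

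The last pair is the coding part of the last coding exon, which encodes the carboxyl end. TPM1-206, TPM1-208 and TPM1-201 use chr15:63071090-63071169, and TPM1-216 uses chr15:63064064-63064143. Both parts are 80 bases long, and 46 bases differ (42.5% identical), again in capitals.
Last coding exon of TPM1-206: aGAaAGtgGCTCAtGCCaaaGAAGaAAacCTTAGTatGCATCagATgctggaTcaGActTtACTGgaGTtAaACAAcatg
Last coding exon of TPM1-216: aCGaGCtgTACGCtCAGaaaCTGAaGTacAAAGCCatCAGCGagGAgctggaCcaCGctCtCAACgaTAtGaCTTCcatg

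**Figure D3:**
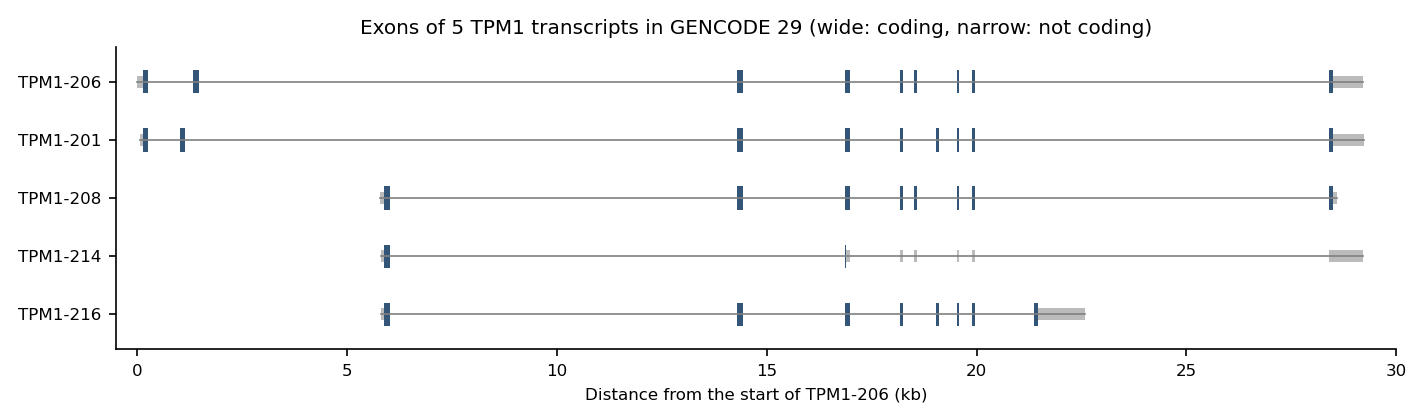
Exon map of the TPM1 transcripts described, in kb from the start of TPM1-206; wide boxes are coding, narrow boxes are not. TPM1-206 and TPM1-201 begin at the distal first exon, while TPM1-208, TPM1-214 and TPM1-216 begin at the internal one.

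Of the 39 listed TPM1 transcripts, 9 passed the filters of the transcript test, which compares the log2 ratio of a transcript's TPM to that of the gene's other transcripts with limma over 67299 transcripts. The background of this test was 2.74% of transcripts called between MCF10AT1 and MCF10A, 24.3% between MCF10Ca1a and MCF10A and 19% between MCF10Ca1a and MCF10AT1. In the first comparison 2 of the 9 were called, TPM1-206 and TPM1-216, in the second 5 and in the last 4. None of the 30 other transcripts had a mean above 1.15 TPM in any line.

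TPM1-206 (ENST00000358278.7, distal start) was low in MCF10AT1, and its levels in the other 2 lines overlapped. It stood at 40.4, 37.3 and 36.1 TPM in MCF10A. It stood at 9.91, 10.1 and 8.94 TPM in MCF10AT1. It stood at 40.7, 39.6 and 44.3 TPM in MCF10Ca1a. The MCF10AT1 libraries lay far below all others.

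As a share of the gene's TPM, TPM1-206 was 37.3% in MCF10A, 12.7% in MCF10AT1 and 49.7% in MCF10Ca1a. The log2 share ratio fell by 2.02 from MCF10A to MCF10AT1 (adjusted p = 0.000553). It was 0.73 higher in MCF10Ca1a than in MCF10A (adjusted p = 0.0084) and 2.75 higher in MCF10Ca1a than in MCF10AT1 (adjusted p = 3.84e-05), each with an SE of 0.14. All 3 calls held with the other pseudocount, the higher minimum share, transcript counts, the replicate block and each library left out.

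TPM1-214 (ENST00000558544.5, internal start) is annotated as a substrate of nonsense-mediated decay. It stood at 26.5, 24.5 and 23.6 TPM in MCF10A. It stood at 27.6, 28.5 and 26.3 TPM in MCF10AT1. It stood at 7.61, 9.85 and 2.57 TPM in MCF10Ca1a. The MCF10Ca1a libraries lay below all others and varied most among themselves.

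The share of TPM1-214 was 24.4%, 36.0% and 7.94% in the 3 lines. Its log2 share ratio was -2.08 in MCF10Ca1a against MCF10A (adjusted p = 0.013) and -2.88 against MCF10AT1 (adjusted p = 0.00436). Without the third MCF10Ca1a library these were -1.49 and -2.29, and both calls held. The difference between MCF10AT1 and MCF10A, 0.80, was not called (adjusted p = 0.44), but it was without the third MCF10Ca1a library (adjusted p = 0.0447).

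TPM1-208 (ENST00000404484.9, internal start) stood at 30.4, 27.8 and 27.6 TPM in MCF10A. It stood at 25.5, 27.6 and 23.1 TPM in MCF10AT1. It stood at 19.4, 16.3 and 18.6 TPM in MCF10Ca1a. MCF10Ca1a was lowest, and the other lines were close, with 28.1%, 33.3% and 21.6% of the gene's TPM in the 3 lines. Its share was lower in MCF10Ca1a than in MCF10AT1 (log2 share ratio -0.86, adjusted p = 0.00475). Against MCF10A it was -0.50 (adjusted p = 0.0312), a call that was lost with replicate number as a block (adjusted p = 0.0739), without any 1 of the 3 MCF10A libraries, without the first MCF10AT1 library and without the second MCF10Ca1a library.

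TPM1-216 (ENST00000558910.3, internal start with the other last exon) was a minor form that rose. It stood at 0.936, 1.43 and 1.10 TPM in MCF10A. It stood at 3.22, 2.28 and 2.56 TPM in MCF10AT1. It stood at 5.33, 5.52 and 4.36 TPM in MCF10Ca1a. The lines did not overlap, and its share of the gene's TPM was 1.14%, 3.53% and 6.05%. The log2 share ratio was 2.41 in MCF10Ca1a against MCF10A (adjusted p = 0.000775) and 1.61 in MCF10AT1 against MCF10A (adjusted p = 0.0264). The second of these calls was lost with replicate number as a block (adjusted p = 0.0998) and without the first or the third MCF10A library or any 1 of the MCF10AT1 libraries. The difference between the derived lines, 0.80, did not pass (adjusted p = 0.0829).

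TPM1-201 (ENST00000267996.11, distal start) stood at 3.66 TPM in MCF10A, 3.73 in MCF10AT1 and 1.80 in MCF10Ca1a on average. It thus had the start site of TPM1-206 but not its pattern. It was called between the derived lines (log2 share ratio -1.22, adjusted p = 0.0235), but not without any 1 of the MCF10AT1 libraries. An unnamed transcript that GENCODE 29 does not list, ENST00000705544.1, stood at 0.392, 0.840 and 1.47 TPM and was called in MCF10Ca1a against MCF10A (log2 share ratio 2.41, adjusted p = 0.046), a call lost in most alternatives. TPM1-226 and the retained-intron transcripts TPM1-217 and TPM1-222 had no call, though TPM1-217 was called in MCF10Ca1a against MCF10A (adjusted p = 0.0192) when the third MCF10Ca1a library was left out.

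Summed by start site, without a test, the 14 transcripts with the distal first exon gave 42.6 ± 2.68 TPM in MCF10A, 14.5 ± 0.926 TPM in MCF10AT1 and 45.7 ± 3.15 TPM in MCF10Ca1a. The 8 with the internal first exon gave 55.5 ± 2.76, 56.7 ± 3.15 and 31.4 ± 3.48 TPM. The distal class was thus low in MCF10AT1 and the internal class low in MCF10Ca1a. The distal share was 41.8 ± 1.09% in MCF10A, 19.0 ± 0.393% in MCF10AT1 and 54.7 ± 4.48% in MCF10Ca1a. These are estimates that split reads between transcripts with shared exons, and transcripts of 1 gene are not independent of each other.

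**Figure D4:**
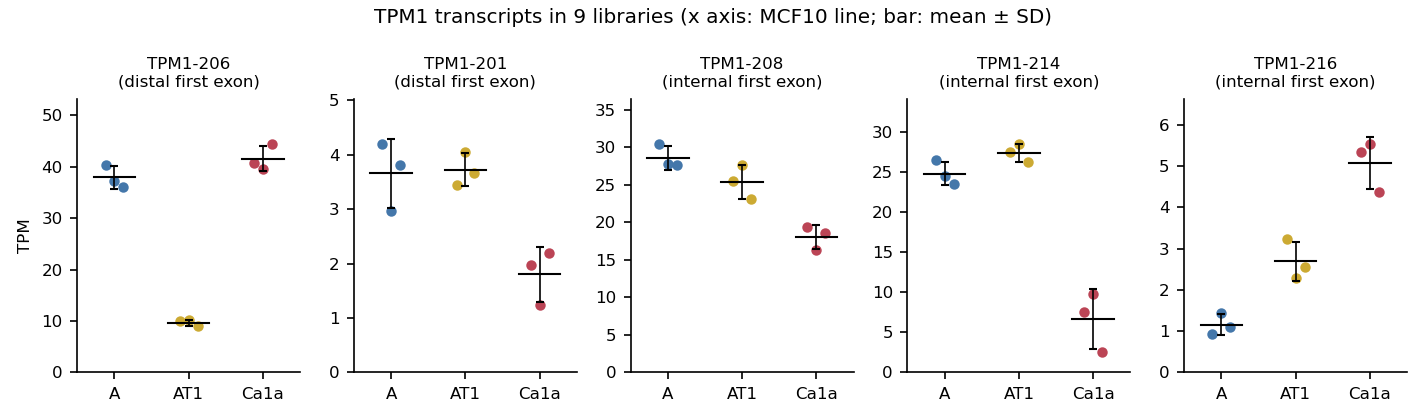
TPM in each library for TPM1-206, TPM1-201, TPM1-208, TPM1-214 and TPM1-216; points are libraries, and horizontal bars with error bars are the mean and SD over 3 libraries. TPM1-206 is low in MCF10AT1 alone, at 8.94 to 10.1 TPM, while TPM1-214 is low in MCF10Ca1a, at 2.57 to 9.85 TPM.

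Among the 4 tropomyosin genes, TPM3, which is broadly expressed, was the most abundant in MCF10A. TPM3 stood at 774 to 834 TPM in MCF10A, 409 to 444 in MCF10AT1 and 317 to 318 in MCF10Ca1a, so its share of all tropomyosin TPM was 51.9 to 53.8%, then 40.9 to 41.3%, then 32.4 to 32.8%. TPM2 went from 11.4 to 12.1% of the tropomyosin TPM in MCF10A to 19.5 to 20.2% in MCF10AT1 and 17.2 to 17.4% in MCF10Ca1a. TPM4 (a short tropomyosin of non-muscle cells) went from 28 to 29.4% to 31.3 to 32.2% and 41.2 to 41.7%. TPM1 went from 6.66 to 6.81% to 7.24 to 7.42% and 8.45 to 8.78%. The shares of TPM1, TPM3 and TPM4 thus moved in 1 direction over the 3 lines without overlap, whereas that of TPM2 was highest in MCF10AT1. A higher share was not a higher level. On average TPM4 stood at 432, 331 and 403 TPM and TPM1 at 102, 76.2 and 83.7 TPM in MCF10A, MCF10AT1 and MCF10Ca1a.

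OXTR (the oxytocin receptor, ENSG00000180914.11, chr3:8750408-8769628, minus strand) was low and highest in MCF10AT1. It had 47, 59 and 45 counts in MCF10A, which is 0.733, 0.912 and 0.645 CPM. In MCF10AT1 it had 143, 119 and 101 counts, which is 2.14, 1.80 and 1.63 CPM. In MCF10Ca1a it had 36, 35 and 31 counts, which is 1.01, 1.04 and 0.874 CPM. The MCF10AT1 libraries lay above all others, and the other 2 lines overlapped.

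OXTR was 2.43-fold higher in MCF10AT1 than in MCF10A (log2 fold change 1.28, SE 0.18, adjusted p = 2.35e-05). It was 1.91-fold lower in MCF10Ca1a than in MCF10AT1 (-0.93, SE 0.18, adjusted p = 0.000377). Between MCF10Ca1a and MCF10A the log2 fold change was 0.35 (SE 0.20) and did not pass (adjusted p = 0.118). CAV3, which overlaps OXTR on the opposite strand, had 0 counts in all libraries.

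Ordered by TPM, the contractile genes formed the same upper set in all lines: TPM2, TPM1 and CALD1. In MCF10A the order was TPM2 at 178 TPM, CALD1 at 111 and TPM1 at 102 (which overlapped each other), TAGLN at 77.3, MYL9 and ACTA2 both at 11.3, then MYLK at 0.314, OXTR at 0.278 and ACTG2 at 0.201, which overlapped. In MCF10AT1 it was TPM2 at 207, TPM1 at 76.2 and CALD1 at 75.6 (overlapping), ACTA2 at 5.57, TAGLN at 1.03, OXTR at 0.631, then MYL9 at 0.462 and MYLK at 0.438 (overlapping) and ACTG2. In MCF10Ca1a it was TPM2 at 168, TPM1 at 83.7, CALD1 at 42.3, ACTA2 at 2.60, TAGLN at 1.17, then OXTR at 0.385 and MYLK at 0.268 (overlapping), with ACTG2 and MYL9 at or near 0. TAGLN thus moved from below CALD1 and TPM1 in MCF10A to below ACTA2 in both derived lines.

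The 10 genes together gave 451 to 541 TPM in MCF10A, 352 to 386 in MCF10AT1 and 297 to 300 in MCF10Ca1a. TPM1, TPM2 and CALD1 made up 79.2 to 80.0% of that sum in MCF10A, 97.7 to 97.9% in MCF10AT1 and 98.4 to 98.6% in MCF10Ca1a. In these bulk libraries, fewer cells that express a gene and less RNA per cell cannot be told apart.

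Other genes of the contractile pathway were read in 7 lists, against the shares of all genes called: 29.8% higher and 31.8% lower in MCF10AT1 against MCF10A, 39% and 41.9% in MCF10Ca1a against MCF10A, and 38% and 40.3% between the derived lines. Shares of a short list near these values are no result about the list, and the lists serve to place the single genes named. Of 14 paralogs, 12 were tested, with 4 higher and 5 lower in MCF10AT1 against MCF10A, 3 and 6 in MCF10Ca1a against MCF10A, and 3 and 7 between the derived lines, with median log2 fold changes of -0.01, -0.24 and -0.44. TAGLN2 (a transgelin of non-muscle cells) fell by smaller folds than TAGLN against MCF10A, from 1174 to 612 and 292 CPM (log2 fold change -0.94 and -2.01 against MCF10A, adjusted p = 8.52e-09 and 1.24e-12). CNN3 had the largest rise in MCF10AT1, a log2 fold change of 1.51 (adjusted p = 9.21e-11). MYL6B, an essential light chain, had the largest rise in MCF10Ca1a against MCF10A, at 0.71 (adjusted p = 8.65e-09). TAGLN3 was at the floor in MCF10AT1, at least 8.51-fold below MCF10A and at least 12.2-fold below MCF10Ca1a.

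Of the 4 heavy chains of myosin II, 3 were tested, and the smooth muscle chain MYH11 was at or near 0. MYH10 (non-muscle myosin IIB) fell from 119 CPM in MCF10A to 81.3 in MCF10AT1 and 41.5 in MCF10Ca1a (log2 fold change -0.55, adjusted p = 4.71e-05, and -1.52, adjusted p = 7.89e-10, against MCF10A). MYH14 (non-muscle myosin IIC) was at the floor in MCF10A and MCF10AT1 and at 2.49 CPM in MCF10Ca1a, at least 54.8-fold and 53.8-fold higher than in those lines. MYH9, the main non-muscle heavy chain here, exceeded its MCF10A level in MCF10Ca1a by a log2 fold change of 0.53 (adjusted p = 6.22e-05). The counts for this list were 0 higher and 1 lower in MCF10AT1 against MCF10A and 2 higher and 1 lower in each comparison with MCF10Ca1a. MYH14 passed the filter only through its counts in MCF10Ca1a, so its inclusion favours a rise in that line.

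Of 17 genes that control light chain phosphorylation, 16 were tested, with 5 higher and 7 lower in MCF10AT1 against MCF10A, 5 and 8 in MCF10Ca1a against MCF10A, and 5 and 9 between the derived lines (median log2 fold changes -0.02, -0.14 and -0.22). RHOB, a small GTPase that is induced by stress and growth factors, rose from 8.96 CPM in MCF10A to 65.6 in MCF10AT1 and 55.3 in MCF10Ca1a (log2 fold change 2.87, adjusted p = 3.61e-13, and 2.63, adjusted p = 2.75e-13). CALM2 and CALM3, which encode calmodulin, the calcium sensor that activates MYLK, fell in MCF10Ca1a against MCF10A, by 0.94 and 1.07 on the log2 scale (adjusted p = 1.5e-07 and 1.53e-09). PPP1R12B (a myosin phosphatase subunit) had the largest fall in MCF10AT1, at -0.70 (adjusted p = 6.76e-07), and DAPK3 (a kinase for the light chain) the largest rise from MCF10AT1 to MCF10Ca1a, at 1.59 (adjusted p = 4.05e-10).

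Of SRF and its cofactors, 7 of 8 genes were tested, and MYOCD (myocardin) had 0 counts in all libraries. In MCF10AT1 against MCF10A, 2 were higher and 4 lower, in MCF10Ca1a against MCF10A 3 and 3, and between the derived lines 1 and 4 (median log2 fold changes -0.22, -0.02 and -0.23). SRF itself was at 48.3, 39.6 and 57.8 CPM, lower in MCF10AT1 than in MCF10A (log2 fold change -0.29, adjusted p = 0.00306) and higher in MCF10Ca1a than in MCF10AT1 (0.55, adjusted p = 8.08e-06). The coactivators MRTFA and MRTFB were lower in both derived lines, by log2 fold changes of -0.41 and -0.22 in MCF10AT1 and -0.39 and -0.45 in MCF10Ca1a against MCF10A (adjusted p from 6e-06 to 0.00345). These calls depend on the scale: on log2(TPM + 1) neither passed in MCF10Ca1a (-0.07, adjusted p = 0.668, and -0.10, adjusted p = 0.369), and MRTFB did not in MCF10AT1 (-0.18, adjusted p = 0.127). The fall of MRTFA in MCF10AT1 was lost on scaled counts (-0.30, adjusted p = 0.0592) and on log2(TPM + 1) without a filter (-0.38, adjusted p = 0.085). CSRP1 (a LIM protein of smooth muscle) fell most, from 173 to 106 and 19.5 CPM (-3.15 in MCF10Ca1a against MCF10A, adjusted p = 1.8e-14). CSRP2 had the largest rise in both comparisons with MCF10A, 0.82 and 0.26 (adjusted p = 2.44e-08 and 0.00108).

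All 12 other SRF targets of the cytoskeleton were tested, with 2 higher and 5 lower in MCF10AT1 against MCF10A, 4 and 6 in MCF10Ca1a against MCF10A, and 5 and 6 between the derived lines (median log2 fold changes -0.10, -0.40 and -0.33). FHL1 (a LIM protein of muscle) fell much as MYL9 did, from 19.7 CPM in MCF10A to 0.873 in MCF10AT1 and 0.135 in MCF10Ca1a (-4.50, adjusted p = 3.2e-12, and -7.18, adjusted p = 4.31e-13, against MCF10A). FLNA (filamin A, an actin crosslinker) stood at 960 CPM in MCF10A, at 993 in MCF10AT1 and at 45.6 in MCF10Ca1a (-4.44 against MCF10AT1, adjusted p = 2.81e-13). CCN2, a matrix protein, was highest in MCF10AT1, at 63.4 CPM against 24.8 in MCF10A (1.36, adjusted p = 4.08e-11). LIMA1 had the largest rise in MCF10Ca1a against MCF10A (0.91, adjusted p = 1.5e-09), and VCL (vinculin) the largest between the derived lines (0.81, adjusted p = 3.18e-06).

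Of 12 smooth muscle differentiation genes outside the 10, 6 were tested, with 5 higher and 1 lower in MCF10AT1 against MCF10A, 4 and 2 in MCF10Ca1a against MCF10A, and 2 and 3 between the derived lines (median log2 fold changes 0.74, 0.75 and -1.03). Those that rose in MCF10AT1 were SMTN (smoothelin), SYNM, ACTN4 (a non-muscle actinin), CAV1 (caveolin, broadly expressed) and KCNMA1. SYNM (synemin, an intermediate filament protein) rose from 0.297 CPM in MCF10A to 5.13 in MCF10AT1 and 1.24 in MCF10Ca1a (4.10, adjusted p = 1.79e-11, and 2.05, adjusted p = 3.71e-08). KCNMA1 (the large-conductance potassium channel) was at 3.35, 22.3 and 0.172 CPM, a log2 fold change of -7.0 in MCF10Ca1a against MCF10AT1 (adjusted p = 6.42e-14). SYNPO2 (an actin-binding protein of muscle) was lowest in MCF10AT1, at 0.145 CPM (-0.99, adjusted p = 0.0354, lost in many alternatives), and highest in MCF10Ca1a, at 0.770 CPM (2.40 against MCF10AT1, adjusted p = 2.77e-05). ITGA8 had 0 counts in all libraries.

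Downstream of the oxytocin receptor, 9 of 11 genes were tested, with 1 higher and 7 lower in MCF10AT1 against MCF10A, 1 and 7 in MCF10Ca1a against MCF10A, and 3 and 5 between the derived lines (median log2 fold changes -0.46, -1.06 and -0.27). In MCF10AT1, where OXTR was highest, PLCB1 (a phospholipase C) was lowest, at 0.0709 CPM against 1.15 in MCF10A (-3.96, adjusted p = 1.15e-07). ITPR1 (a calcium release channel) was also lowest there, at 3.54 CPM against 10.4 in MCF10A and 13.5 in MCF10Ca1a. GNAQ (the G protein subunit that couples to the receptor) was the gene called higher in MCF10AT1, by 0.18 (adjusted p = 0.0103), a call lost on the TPM scale and without the second MCF10A library (adjusted p = 0.0512). RGS2, which turns that G protein off, fell most in MCF10Ca1a against MCF10A (-1.66, adjusted p = 8.09e-10), and PLCB4 most between the derived lines (-1.18, adjusted p = 1.9e-06). The hormone gene OXT had 0 counts in all libraries.

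**Figure D5:**
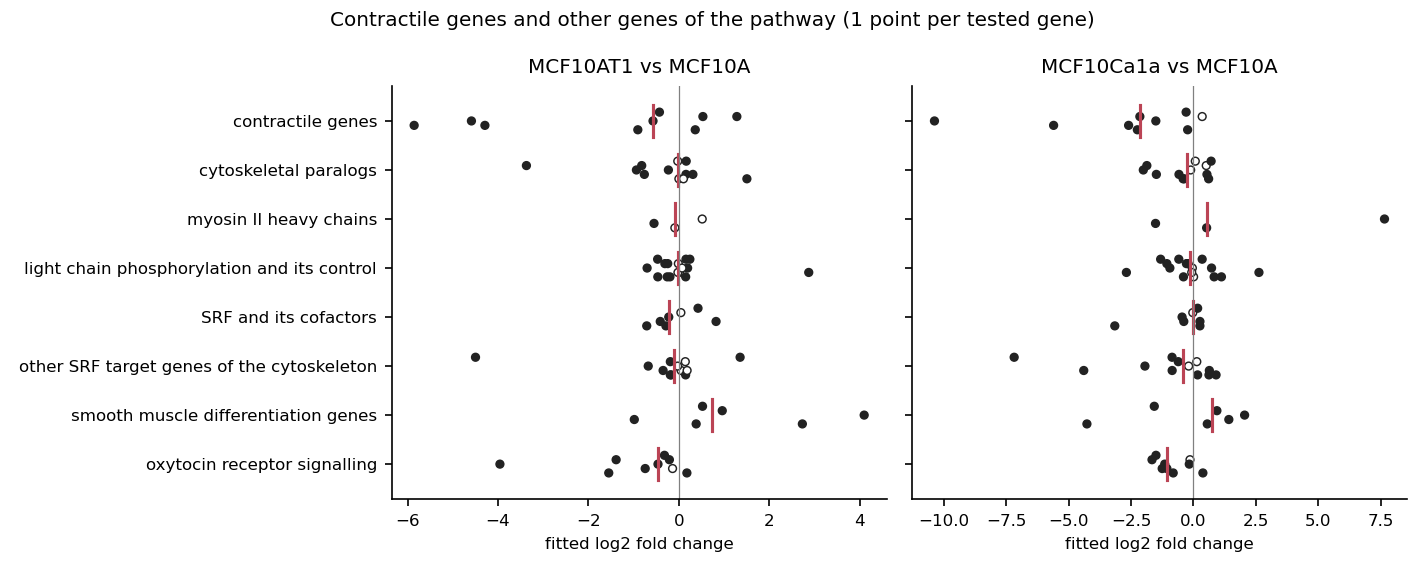
Fitted log2 fold changes of all tested contractile genes and of the tested genes of the 7 pathway lists, for MCF10AT1 against MCF10A (left) and MCF10Ca1a against MCF10A (right), on axes of different range; points are genes, filled where called, and red bars are medians. In MCF10AT1 against MCF10A the median of the contractile genes is -0.57, and those of the pathway lists run from -0.46 to 0.74; ACTG2, MYL9 in MCF10Ca1a, MYH14 and TAGLN3 in MCF10AT1 are drawn at fitted values that rest on lines at the floor, so the bar of the contractile genes in the right panel is at -2.15, against -1.51 with those genes at their bound.

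Markers of the labelled cell type and of other cells were read beside these changes. Basal or myoepithelial markers summed to 2235 to 3084 TPM in MCF10A, 2541 to 2843 in MCF10AT1 and 2945 to 3019 in MCF10Ca1a, and all 8 were tested. That sum covers opposite changes: in the 3 lines KRT5 stood at 1423, 1632 and 420 TPM and KRT17 at 670, 742 and 1829 TPM. In that list 4 were higher and 4 lower in MCF10AT1 against MCF10A, and 5 were higher and 3 lower in each comparison with MCF10Ca1a. The shares of all genes called in each comparison are those given beside the pathway lists. KRT14, a keratin of myoepithelial cells, fell with TAGLN and MYL9, from 316 to 65.7 and 6.26 CPM (log2 fold change -2.26, adjusted p = 8.22e-12, and -5.65, adjusted p = 4.18e-15, against MCF10A). KRT14 had the largest falls of the list against MCF10A and was singled out after its values were seen. MME fell at each step as well, from 14.4 to 3.93 and 1.35 CPM. Other basal markers rose, such as NGFR (3.74 and 6.44) and ITGB4 (0.49 and 1.42, log2 fold changes against MCF10A). TP63, the basal lineage factor, was at 71.1, 49.0 and 78.3 CPM. Luminal markers summed to 393 to 528, 1157 to 1292 and 1545 to 1614 TPM. In each comparison with MCF10A 7 of 8 were higher, against 29.8% (MCF10AT1) and 39% (MCF10Ca1a) of all genes tested. MUC1 was lower in MCF10Ca1a, at 1.32 CPM against 36.7 in MCF10A (log2 fold change -4.80, adjusted p = 6.96e-14). Between the derived lines 4 luminal markers were higher and 2 lower, against 38% and 40.3% of all genes tested. The markers of all epithelial cells summed to 116 to 156, 279 to 311 and 809 to 840 TPM.

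Smooth muscle or pericyte markers summed to 14.8 to 20.1 TPM in MCF10A, 9.93 to 10.9 in MCF10AT1 and 2.21 to 2.68 in MCF10Ca1a. In MCF10A and MCF10AT1 most of that was MCAM, at 14.9 and 8.88 TPM, and in MCF10Ca1a it was RGS5, at 2.05 TPM with MCAM at 0.248, while LMOD1 did not pass 3 counts in any library. Fibroblast markers summed to 6.43 to 7.23, 27.7 to 31.5 and 1.94 to 2.33 TPM. In MCF10AT1 DCN gave most, at 27.9 TPM, and in MCF10Ca1a COL1A1, at 1.79 TPM, while COL1A2, COL3A1 and THY1 did not pass 3 counts in any library. The endothelial genes VWF and CDH5 and the leukocyte genes PTPRC and CD3E did not pass 3 counts either, although PECAM1 and CD68 were detected. Through them the endothelial list summed to 0.554 to 0.746, 0.789 to 1.22 and 15.6 to 20.8 TPM in the 3 lines and the leukocyte list to 8.33 to 13, 2.65 to 2.68 and 30.2 to 33 TPM. These 8 markers were thus at or near 0 in all 3 lines. The part of the basal and luminal markers in the changes of the contractile genes was not tested.

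For the 9 tested contractile genes the gene with the most similar profile was sought among 11998 genes with a mean of at least 100 counts. The measure was the root mean square distance between centred log2(CPM + 0.1) values over the 9 libraries. The neighbour of CALD1 is not reported here. The nearest profile to TPM2 was that of SPIN1, at a distance of 0.024, followed by ANXA5. The nearest to TPM1 was CASP8, at 0.0348. The nearest to ACTA2 was GPRASP2 (0.113), to OXTR it was XK (0.121) and to MYLK EMP2 (0.174). For ACTG2 it was MAN1A1 (0.165), but the added 0.1 CPM sets the profile of ACTG2, which was at or near the floor in the derived lines. The nearest to MYL9 was TSPAN18 (0.264), which was at 16.5, 0.475 and 0 CPM. The nearest to TAGLN was ZNF736 (0.0997), a gene at 4.94 CPM in MCF10A and at or near 0 in both derived lines, where the added 0.1 CPM sets the distance. These distances are descriptions of profiles in libraries that share lines and depth.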

How the data were processed

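PolyA RNA of 9 libraries (MCF10A, MCF10AT1 and MCF10Ca1a, 3 each) was sequenced with a stranded kit, per the labels' protocols. The authors deposited 6 tables: estimated counts per gene (unscaled, length-scaled and scaled), TPM per gene, and estimated counts and TPM per transcript. Salmon and hg38 are named, without a version, per the submitters' processing notes; the annotation release and the strand setting are not given in the sources used here. Positions and transcript structures come from GENCODE 29 (GRCh38), promoters from RefSeq (GRCh38.p14).

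The deposited estimated counts were rounded and fitted with edgeR 4.0.16 (R 4.3.3): TMM, filterByExpr by line (minimum count 10, minimum total 15), 1 quasi-likelihood fit of 17910 of 62666 genes over all 9 libraries, Benjamini-Hochberg at 0.05. Deposited TPM gave levels and transcript shares; log2((transcript TPM + 0.1)/(other transcripts' TPM + 0.1)) was tested with limma 3.58.1 over 67299 of 252876 transcripts (mean gene TPM of at least 1, mean share 1 to 99%). The scripts were tested on simulated data. Likeness used log2(CPM + 0.1).

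The members and lists were chosen with earlier results of these data known. Named were the 10 genes, each TPM1 transcript tested and, per list and comparison, the called genes with the largest rise and fall (1 of these is not reported here); other list genes in the text (ACTB, ACTG1, MYL12A, MYL12B, MYH9, MYH11, CALM2, CALM3, MRTFA, MRTFB, MYOCD, SMTN, ACTN4, CAV1, ITGA8, OXT, the tropomyosin genes and the marker genes) were named after their values were seen. Alternatives were DESeq2 1.42.0 (size factors, Wald test), no filter, length-scaled and scaled counts, limma on log2(TPM + 1) and log2(TPM + 0.1), replicate number as a block, fits of 2 lines, thinned counts and leaving out each library; the same settings for the lists were added after seeing the data. No library pair held identical counts.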

Additional observations from a re-analysis of the deposited data

How the results depend on the processing

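Gene counts kept within 1.5 times of the main counts in all alternatives run: 8893 to 11649 genes between MCF10AT1 and MCF10A (main 11025), 13425 to 16050 between MCF10Ca1a and MCF10A (main 14491). On log2(TPM + 1) the share of lower calls moved from 51.6%, 51.8% and 51.5% to 63.8%, 45% and 38.4%. The median log2 change of all genes was -0.07, 0.06 and 0.13 there, against -0.004, -0.046 and -0.044 in the main fit. Of 243 changes of contractile genes with 1 library left out, 238 were unaltered in call and direction, 3 lost and 2 gained a call; of 286 under other settings (11 further values are missing because ACTG2 did not pass the filter there), 263 were unaltered, 18 lost and 1 gained a call, and 4 reversed. The reversed ones were MCF10Ca1a against MCF10AT1 on length-scaled and scaled counts: TAGLN at -0.12 and -0.10 and TPM1 at -0.16 and -0.15 (log2). For these the cause was not tested. TAGLN had 52 to 102 counts per library in the derived lines, which limits that comparison.

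Counts of called transcript shares depended more on the setting. Between MCF10AT1 and MCF10A the count was 1845, with replicate number as a block 664, with a pseudocount of 0.01 TPM 1187, and with 1 library left out 900 to 1884; it was at or below 1105 without any 1 of the MCF10A or MCF10AT1 libraries. Between MCF10Ca1a and MCF10A it was 16365, with shares of at least 5% 10546 (fewer transcripts tested), and with 1 library left out 11628 to 14725. Between MCF10Ca1a and MCF10AT1 it was 12811, 8477 and 8212 to 12013, with the values at or below 8326 all from leaving out an MCF10AT1 library. The replicate numbers showed no pairing of the libraries: deviations of same-numbered libraries correlated at -0.174 to 0.202 and those of differently numbered ones at -0.205 to 0.182. With 3 libraries per line this check cannot exclude a pairing. The block gave 10846, 14397 and 13917 called genes and changed no call of a contractile gene. It ended 3 transcript calls: those of TPM1-216 (adjusted p = 0.0998), TPM1-208 (0.0739) and ENST00000705544.1 (0.0668). For the called list genes followed one by one (those named by the rule and others named in the text), 694 of 702 values with 1 library left out and 823 of 858 under other settings were unaltered; the rest lost their call, except that MRTFB in MCF10Ca1a against MCF10AT1 reversed on the 3 TPM fits (0.088 to 0.099). The small counts per list moved by over 1.5 times in 17 of 378 refits with 1 library left out and in 46 of 462 under other settings; for example, light chain control genes higher in MCF10AT1 than in MCF10A went from 5 to 1 on log2(TPM + 1) without a filter.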
